A study of Mus musculus with 8 samples.

Results

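The genes described here are 10 genes of platelet-derived growth factor (PDGF) signaling and of other growth factors linked to liver fibrosis, taken by symbol from the 55450 genes in the annotation of a mouse liver single-cell RNA sequencing (scRNA-seq) dataset. They are the PDGF ligands Pdgfa, Pdgfb and Pdgfc, the PDGF receptors Pdgfra and Pdgfrb, the cytokine oncostatin M (Osm) and its receptor subunit Osmr, and the growth factors Igf1, Areg and Vegfa. All 10 symbols were found, and the rule that takes them uses symbols and no threshold on a measured value. Cells were taken from the livers of wild-type C57BL/6 mice in 3 groups, with 1 library per mouse. The 2 control mice received a normal diet and drinking water. The 3 HFD+F+CCl4 mice received a high-fat diet and the 3 WD+F+CCl4 mice a western diet, which per the study's methods is richer in cholesterol, and both groups also drank fructose solution and were injected intraperitoneally with carbon tetrachloride (CCl4), a hepatotoxin. Diet, fructose and CCl4 were thus given together in both models of nonalcoholic steatohepatitis (NASH) with fibrosis, and their effects cannot be told apart.

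PDGF ligands are secreted dimers that activate receptor tyrosine kinases on mesenchymal cells, and in liver fibrosis the PDGF-B chain acting on PDGF receptor beta is a well-known mitogen of hepatic stellate cells, the main producers of scar collagen. Oncostatin M is an interleukin-6 family cytokine of immune cells that signals through OSMR with gp130, and IGF-1 is a growth hormone-dependent factor made chiefly by hepatocytes and also by macrophages. Amphiregulin, encoded by Areg, activates the epidermal growth factor receptor and is known from regulatory T cells and injured epithelium, whereas VEGF-A maintains and stimulates endothelial cells.

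On the GRCm38 build with the GENCODE M21 annotation, the ligand genes were Pdgfa (ENSMUSG00000025856) on chromosome 5 from 138976014 to 138997370, Pdgfb (ENSMUSG00000000489) on chromosome 15 from 79995874 to 80014977 and Pdgfc (ENSMUSG00000028019) on chromosome 3 from 81036416 to 81214040. The receptor genes were Pdgfra (ENSMUSG00000029231) on chromosome 5 from 75152292 to 75198215 and Pdgfrb (ENSMUSG00000024620) on chromosome 18 from 61045150 to 61085061. The others were Osm (ENSMUSG00000058755) on chromosome 11 from 4236420 to 4241026, Osmr (ENSMUSG00000022146) on chromosome 15 from 6813577 to 6874969, Igf1 (ENSMUSG00000020053) on chromosome 10 from 87858265 to 87937042, Areg (ENSMUSG00000029378) on chromosome 5 from 91139599 to 91148432 and Vegfa (ENSMUSG00000023951) on chromosome 17 from 46016993 to 46032369. Each is a protein-coding gene, and a value stands for the whole gene, since the libraries count the 3′ ends of transcripts.

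Of 88581 barcodes in the 8 libraries, 80474 had more than 500 genes and under 25% mitochondrial unique molecular identifiers (UMIs, each standing for 1 captured transcript). A mouse contributed 4168 to 11999 such cells, and the libraries held 6135827 to 64855024 UMIs. Control replicate 2 was the smallest and shallowest library, with a median of 992.5 UMIs per cell against 2397 in control replicate 1 and 3159 to 4278 in the model mice. Pairs of libraries shared 8 to 46 barcode sequences, at most 0.552% of the smaller library. Cells were clustered without the 10 genes, and 28 of 34 clusters were named from markers, so every class below is "-like". Levels are given as CPM, the UMIs of a gene per 1000000 UMIs of all genes, summed over the cells of a class in 1 mouse, for mice with at least 20 cells of the class. Because the assay reads 3′ ends and does not correct for length, levels are compared between classes or mice and not between genes. Each class carried its own marker list at 4191 CPM or more in every mouse with 20 cells of it. HFD+F+CCl4 replicate 1 supplied 2781 of 3547 and 2318 of 2661 cells of a pair of monocyte/macrophage-like clusters (8 and 11) led by immediate early and heat shock genes. In that class none of the 10 genes passed the test described below, either with or without those clusters, so there was no call to lose.

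The 10 genes differed in the cells that held their transcripts. Pdgfra and Pdgfrb transcripts came mainly from stellate-like cells, with 88.5% of 830 Pdgfra UMIs and 57.6% of 1210 Pdgfrb UMIs. Osmr UMIs (2361) lay mostly in endothelial-like cells (75.4%) and stellate-like cells (9.06%). Pdgfb (29551 UMIs) was detected in nearly every class, and 67.7% of its UMIs came from monocyte/macrophage-like cells, the most numerous class with 36109 cells. Igf1 (34727 UMIs) and Pdgfc (2253 UMIs) also came mainly from that class, with 74.4% and 61.0%, and within it from Kupffer-like and other macrophage-like cells. Cholangiocyte-like cells, at only 679 cells, supplied 27.8% of Pdgfc, 26.7% of 2921 Vegfa and 17.1% of 3538 Pdgfa UMIs. Osm (1665 UMIs) came from monocyte/macrophage-like (41.3%), neutrophil-like (22.6%) and T/NK-like cells (17.4%), and Areg, at 358 UMIs the least counted gene, from patrolling monocyte-like (53.4%) and T/NK-like cells (17.9%). These shares follow both the level of a gene and the number of cells of a class.

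**Figure D1:**
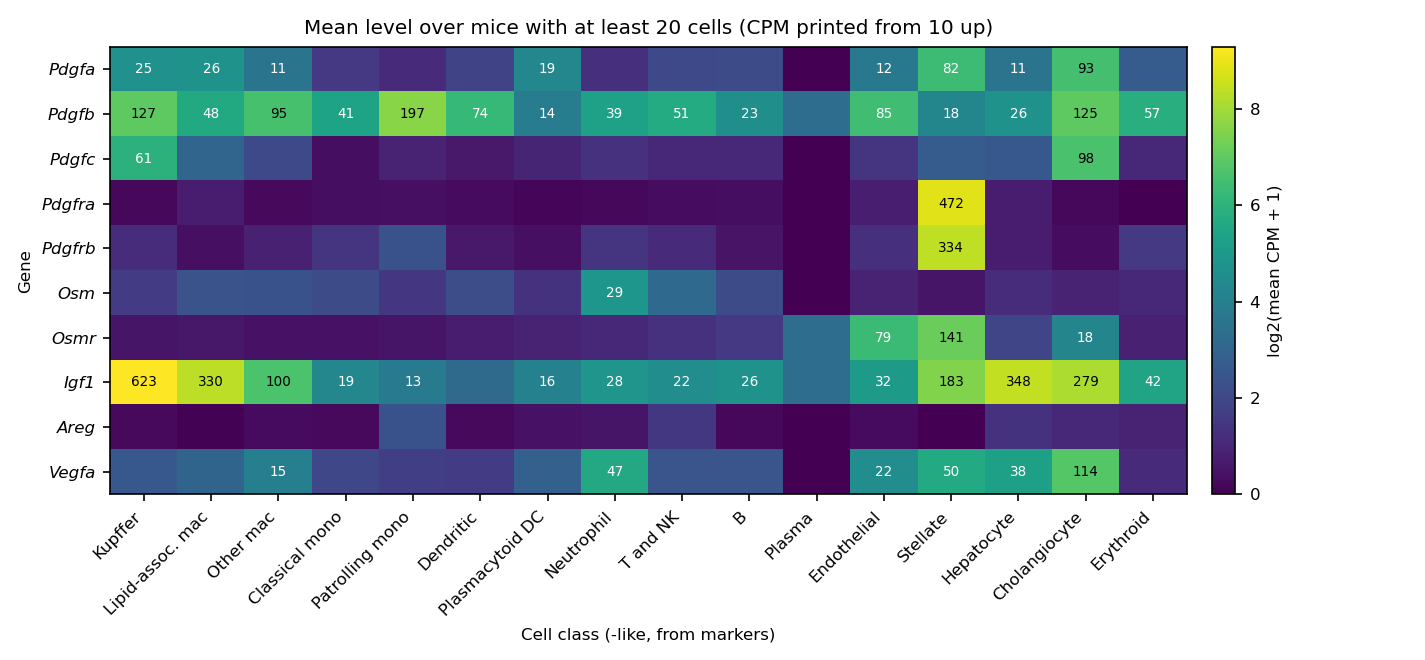
Heat map of the mean level of each gene (vertical axis) in each marker-defined class (horizontal axis) over the mice with at least 20 cells of the class, with color as log2(mean CPM + 1), to be read along a row, and the CPM printed from 10 up. Pdgfra reached 472 CPM and Pdgfrb 334 CPM in stellate-like cells, Igf1 623 CPM in Kupffer-like cells, and Pdgfb was above 10 CPM in 15 of the 16 classes.

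Pdgfb had a higher level than in control in all 7 classes compared, in both models, with log2 fold changes of 1.28 to 3.70 in HFD+F+CCl4 and 1.09 to 3.37 in WD+F+CCl4, and it passed the test in 5 classes in HFD+F+CCl4 and in 4 in WD+F+CCl4. The other calls were Igf1, higher in cholangiocyte-like cells of both models, Pdgfa and Areg, higher in T/NK-like cells of HFD+F+CCl4, and Vegfa, lower in T/NK-like cells of WD+F+CCl4. The test was edgeR's quasi-likelihood test on UMIs summed per mouse, with Benjamini-Hochberg adjustment over all genes tested in a class, and a gene is said to have risen or fallen, or to be called, at an adjusted p under 0.05. Over all classes, 8 of 37 tested combinations of gene and class were called in HFD+F+CCl4 and 6 of 37 in WD+F+CCl4, and both comparisons use the same 2 control mice. In T/NK-like cells 3 of 6 tested genes were called in HFD+F+CCl4, where 6.74% of all tested genes were, and 2 of 6 in WD+F+CCl4, where 10.7% were. In dendritic-like cells it was 1 of 5 in each model, beside 3.63% and 8.88% of all genes. In B-like cells, 1 of 2 was called in each model, beside 6.23% and 12.4%. In cholangiocyte-like cells, 1 of 6 was called in HFD+F+CCl4 and 2 of 6 in WD+F+CCl4, beside 0.469% and 0.584%.

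Endothelial-like cells gave 1 called gene of 5 in HFD+F+CCl4, beside 1.7% of all genes, and 0 of 5 by edgeR in WD+F+CCl4, beside 1.39%, where 1 had an unadjusted p under 0.05 and DESeq2 called 1. Neutrophil-like cells gave 1 of 4 in HFD+F+CCl4, beside 2.29%, and 0 of 4 by edgeR in WD+F+CCl4, beside 4.2%, where again 1 had an unadjusted p under 0.05 and DESeq2 called 1. In monocyte/macrophage-like cells edgeR called 0 of 9 tested genes in either model, beside 5.36% of all genes in HFD+F+CCl4 and 6.86% in WD+F+CCl4. There, 4 genes in HFD+F+CCl4 and 3 in WD+F+CCl4 had an unadjusted p under 0.05, and DESeq2 called 2 and 1. Hepatocyte-like cells (1 control mouse with 20 cells) and stellate-like cells (no control mouse with 20 cells) could not be compared with control. Plasmacytoid dendritic-like cells had at least 20 cells in each of the 8 mice but were not among the classes tested. Their Pdgfb level ran from 0 to 46.7 CPM over these mice, on 135 UMIs. Clusters 16 and 17, led by hepatocyte genes and almost all from controls, stayed unnamed and were left out.

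**Figure D2:**
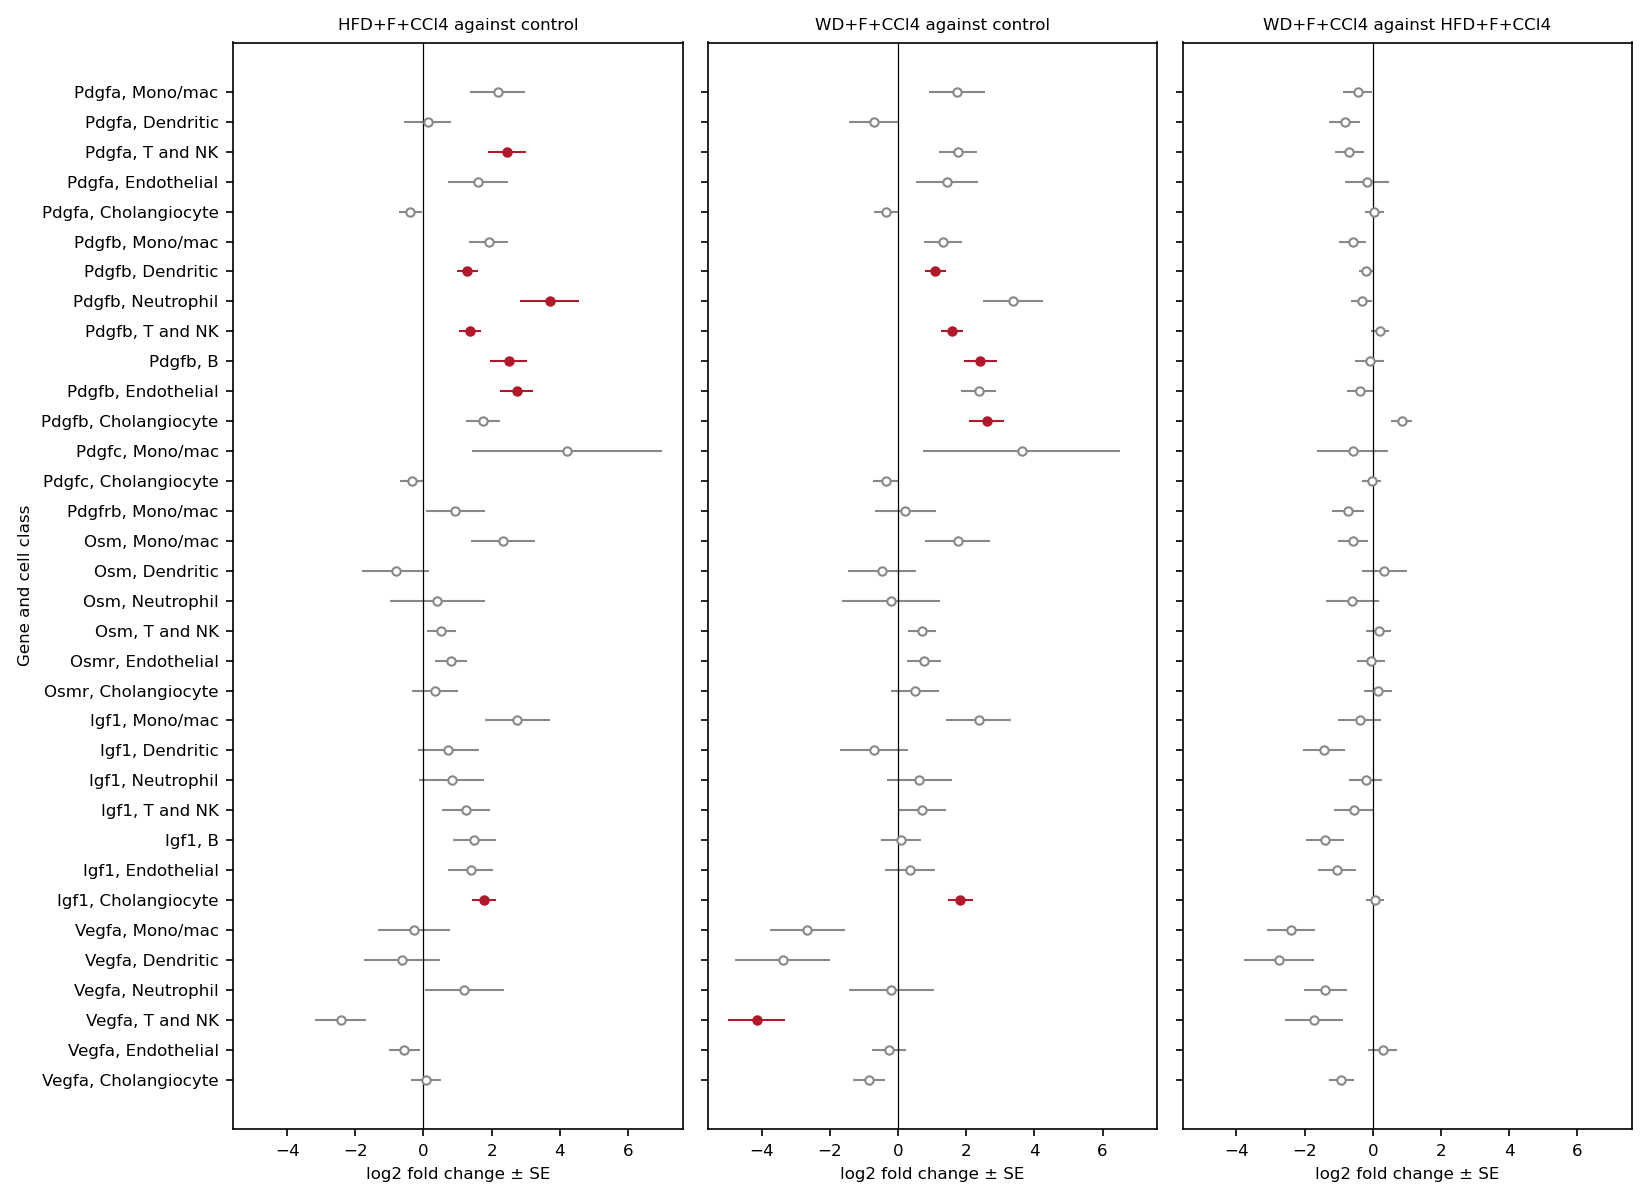
Log2 fold change (horizontal axis, bars are ± SE from edgeR) of the genes in each tested class for the 3 comparisons, without hepatocyte-like cells and without fits against controls at 0 UMIs. Filled red points passed the test: Pdgfb lies to the right of 0 in all 7 classes in both comparisons with control, and no point passed between the models.

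Pdgfb encodes the B chain of PDGF, which endothelial cells are known to use for recruiting pericytes. In endothelial-like cells its level was 18.1 and 17.1 CPM in the control mice, 149.8, 81.9 and 123 CPM in the HFD+F+CCl4 mice, and 136 and 68.0 CPM in WD+F+CCl4 replicates 2 and 3. Every model mouse with enough cells lay above both control mice, and WD+F+CCl4 replicate 1 had only 9 such cells. The value of control replicate 2 rests on few UMIs, out of 116869 of all genes in 77 cells. The log2 fold change was 2.73 ± 0.48 (SE), adjusted p = 0.0211, in HFD+F+CCl4 and 2.36 ± 0.51 (SE), adjusted p = 0.0543, in WD+F+CCl4, so that only the former passed. In this class the summed level of the 10 monocyte/macrophage markers was 1289 to 2353 CPM in controls, 4203 to 5851 CPM in HFD+F+CCl4 and 3505 to 7277 CPM in WD+F+CCl4, with at least 7 of the 10 detected in each control mouse and all 10 in each model mouse, and its part in the difference was not tested. The HFD+F+CCl4 call was lost without control replicate 1 (adjusted p = 0.316), control replicate 2 (adjusted p = 0.113) or HFD+F+CCl4 replicate 1 (adjusted p = 0.0606), with adjusted p from 4.83e-07 to 0.316 over 18 alternatives. The WD+F+CCl4 difference passed without HFD+F+CCl4 replicate 1 (adjusted p = 0.0499), in a range of 0.000162 to 0.364 over 18 alternatives.

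In cholangiocyte-like cells, the epithelium of bile ducts, Pdgfb was at 19.5 and 113 CPM in the control mice, 121, 107 and 114 CPM in the HFD+F+CCl4 mice, and 230.2 and 168 CPM in WD+F+CCl4 replicates 2 and 3. The WD+F+CCl4 mice lay above both controls, whereas 1 of the HFD+F+CCl4 mice lay below control replicate 2, whose value rests on 5 UMIs. The value of control replicate 1 also rests on few UMIs, out of 307208 of all genes in 44 cells. Pdgfb rose in WD+F+CCl4 (log2 fold change 2.59 ± 0.51 (SE), adjusted p = 0.0385) and did not pass in HFD+F+CCl4 (1.74 ± 0.51 (SE), adjusted p = 0.245). The call was lost without control replicate 1 (adjusted p = 0.569), HFD+F+CCl4 replicate 1 (adjusted p = 0.0664), HFD+F+CCl4 replicate 2 (adjusted p = 0.092) or HFD+F+CCl4 replicate 3 (adjusted p = 0.0532), and adjusted p ran from 1.12e-05 to 0.569 over 17 alternatives. Monocyte/macrophage markers in this class summed to 1129.5 to 1762 CPM in controls, 1378 to 2981 CPM in HFD+F+CCl4 and 1875 to 5572 CPM in WD+F+CCl4, with at least 5 of 10 detected in each control mouse and all 10 in each model mouse, and their part was not tested.

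**Figure D3:**
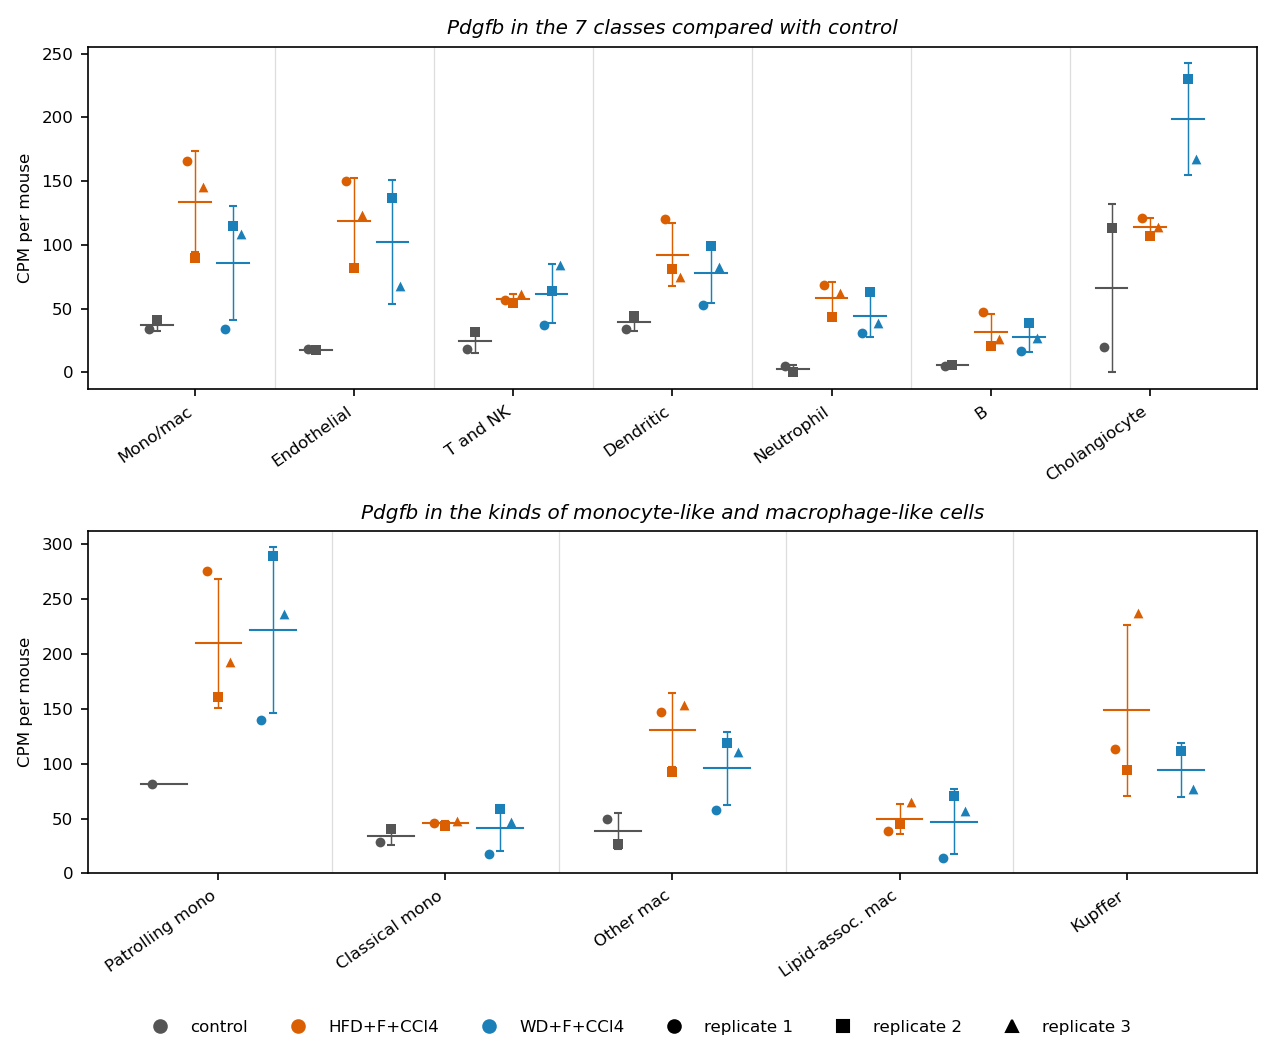
Pdgfb level per mouse (vertical axis, CPM) in the 7 classes compared with control (upper panel) and in the kinds of monocyte-like and macrophage-like cells (lower panel). Points are mice, shaped by replicate and colored by group, and lines and bars are the mean ± SD. Model mice lie above both controls in the endothelial, T/NK, dendritic, neutrophil and B-like classes, and patrolling monocyte-like cells hold the highest mean level.

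In monocyte/macrophage-like cells, Pdgfb was at 33.6 and 40.9 CPM in the control mice, 166, 89.4 and 146 CPM in the HFD+F+CCl4 mice, and 33.9, 114 and 108 CPM in the WD+F+CCl4 mice. All HFD+F+CCl4 mice lay above the controls, and WD+F+CCl4 replicate 1 lay among them. The log2 fold changes of 1.91 ± 0.57 (SE), adjusted p = 0.0855, in HFD+F+CCl4 and 1.32 ± 0.56 (SE), adjusted p = 0.188, in WD+F+CCl4 did not pass. Without WD+F+CCl4 replicate 1, which shares the estimate of spread, both passed (adjusted p = 0.0158 and adjusted p = 0.0329), in ranges of 0.00509 to 0.441 over 19 alternatives and of 0.0329 to 0.604 over 19 alternatives. The class differed in its clusters between groups, since 70.71% of its control cells lay in cluster 27, led by F13a1 and Fn1, which held at most 0.03% of model cells. The 7 hepatocyte markers summed to 1343 CPM in cluster 27 and 116 CPM in classical monocyte-like cluster 1. Kinds of cells and differences between libraries cannot be told apart here. Patrolling monocyte-like cells made up 22.4% to 50.9% of the class in the model mice and 5.74% to 7.07% in the controls.

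Within the class, patrolling monocyte-like cells held the highest mean Pdgfb level, at 81.3 CPM in control replicate 1, 275, 161 and 193 CPM in the HFD+F+CCl4 mice, and 139.7, 289 and 237 CPM in the WD+F+CCl4 mice, where the control value rests on 7 UMIs. Classical monocyte-like cells were at 28.2 and 40.6 CPM in the control mice, 45.5, 43.4 and 48.1 CPM in the HFD+F+CCl4 mice, and 17.7, 58.4 and 47.0 CPM in the WD+F+CCl4 mice, so the groups overlapped. In lipid-associated macrophage-like cells Pdgfb was at 38.9, 44.7 and 65.3 CPM in the HFD+F+CCl4 mice and 14.2, 70.5 and 56.8 CPM in the WD+F+CCl4 mice, and in Kupffer-like cells, the resident macrophages of the sinusoid, at 113, 94.7 and 238 CPM in the HFD+F+CCl4 mice and 111 and 76.6 CPM in WD+F+CCl4 replicates 2 and 3. Patrolling monocyte-like cells thus exceeded classical monocyte-like cells in each of the 7 mice with both. No test was run within the kinds of cells, which were defined from the same data.

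Pdgfb also rose in lymphoid and other myeloid classes. In T/NK-like cells it was at 18.1 and 31.4 CPM in the control mice, 56.7, 54.4 and 61.5 CPM in the HFD+F+CCl4 mice, and 37.3, 64.1 and 83.8 CPM in the WD+F+CCl4 mice, and every model mouse lay above both controls. The log2 fold change was 1.36 ± 0.32 (SE), adjusted p = 0.0386, in HFD+F+CCl4 and 1.57 ± 0.32 (SE), adjusted p = 0.018, in WD+F+CCl4. Here too the clusters differed: cluster 6, with Cxcr6 and Il2rb among its leading genes, held 82.88% of control cells, whereas clusters 9 and 12 held most model cells. The 7 hepatocyte markers summed to 1450 CPM in cluster 6 and 265 CPM in cluster 9. In cluster 21, led by NK genes such as Gzmc and Ncr1, Pdgfb was at 70.9 and 139 CPM in the control mice, 64.9, 86.5 and 75.6 CPM in the HFD+F+CCl4 mice, and 63.1, 96.9 and 72.2 CPM in the WD+F+CCl4 mice, so that controls and models overlapped. In cluster 9, led by Tcrg-C1 and Trdc, it was at 22.3 and 46.4 CPM in the control mice, 53.0, 47.0 and 38.5 CPM in the HFD+F+CCl4 mice, and 34.2, 64.8 and 68.8 CPM in the WD+F+CCl4 mice, with only 6 and 3 UMIs in the controls. Cluster 26, led by Tcf7 and Lef1, scored highest for T/NK markers but stayed unnamed and out of this class. Of its 628 cells, 597 came from control replicate 1 and 18 from control replicate 2, and Pdgfb was at 3.93 CPM over all of them.

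The T/NK-like call of Pdgfb in HFD+F+CCl4 was lost without control replicate 1 (adjusted p = 0.234), control replicate 2 (adjusted p = 0.0686), HFD+F+CCl4 replicate 1 (adjusted p = 0.0534), HFD+F+CCl4 replicate 2 (adjusted p = 0.0904), HFD+F+CCl4 replicate 3 (adjusted p = 0.102) or WD+F+CCl4 replicate 2 (adjusted p = 0.0581), and adjusted p ran from 1.02e-06 to 0.234 over 19 alternatives. In WD+F+CCl4 it was lost without control replicate 1 (adjusted p = 0.143) or WD+F+CCl4 replicate 2 (adjusted p = 0.0577), in a range of 3.79e-09 to 0.143 over 19 alternatives. Monocyte/macrophage markers summed to 859.8 to 1639.7 CPM in controls, 3685 to 5521 CPM in HFD+F+CCl4 and 4017 to 5669.6 CPM in WD+F+CCl4 in these T/NK-like cells, with all 10 detected in every mouse, and their part was not tested. Removing the cells with the highest doublet scores also ended both calls (adjusted p = 0.12 and adjusted p = 0.0506).

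In dendritic-like cells, which take up and present antigen, Pdgfb was at 34.3 and 44.1 CPM in the control mice, 121, 81.3 and 74.9 CPM in the HFD+F+CCl4 mice, and 52.4, 98.8 and 83.0 CPM in the WD+F+CCl4 mice, again without overlap between controls and models. It rose by a log2 fold change of 1.28 ± 0.31 (SE), adjusted p = 0.0438, in HFD+F+CCl4 and 1.09 ± 0.31 (SE), adjusted p = 0.0495, in WD+F+CCl4. The HFD+F+CCl4 call was lost without control replicate 1 (adjusted p = 0.269), control replicate 2 (adjusted p = 0.151), HFD+F+CCl4 replicate 1 (adjusted p = 0.0751), HFD+F+CCl4 replicate 2 (adjusted p = 0.0565) or WD+F+CCl4 replicate 3 (adjusted p = 0.0621), in a range of 2.67e-05 to 0.269 over 19 alternatives, and the WD+F+CCl4 call without control replicate 1 (adjusted p = 0.317), control replicate 2 (adjusted p = 0.137), HFD+F+CCl4 replicate 2 (adjusted p = 0.0624), WD+F+CCl4 replicate 2 (adjusted p = 0.139) or WD+F+CCl4 replicate 3 (adjusted p = 0.0907), in a range of 0.00053 to 0.317 over 19 alternatives. Monocyte/macrophage markers in this class summed to 2545 to 2552 CPM in controls, 3295 to 4686 CPM in HFD+F+CCl4 and 3495 to 4461 CPM in WD+F+CCl4, with at least 9 of 10 detected in each mouse and their part not tested. Removing the cells with the highest doublet scores ended the WD+F+CCl4 call (adjusted p = 0.0521).

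In B-like cells Pdgfb was at 5.14 and 5.84 CPM in the control mice, 47.5, 20.8 and 25.7 CPM in the HFD+F+CCl4 mice, and 16.3, 38.9 and 27.1 CPM in the WD+F+CCl4 mice, and it rose by a log2 fold change of 2.50 ± 0.55 (SE), adjusted p = 0.00999, in HFD+F+CCl4 and 2.41 ± 0.48 (SE), adjusted p = 0.00299, in WD+F+CCl4. Controls and models did not overlap, although HFD+F+CCl4 replicate 3 had only 2 UMIs in 27 cells. The value of control replicate 2 also rests on few UMIs, out of 342218 of all genes in 209 cells. Of the control B-like cells 86.1% lay in cluster 13, and 94.06% of those of HFD+F+CCl4 and 95.48% of those of WD+F+CCl4 in cluster 10, where Pdgfb was at 22.6 and 13.9 CPM in the control mice, 48.8, 20.8 and 0 CPM in the HFD+F+CCl4 mice, and 17.2, 38.9 and 25.4 CPM in the WD+F+CCl4 mice, so that groups overlapped there, with 5 and 1 UMIs in the controls. The HFD+F+CCl4 call was lost without control replicate 1 (adjusted p = 0.318) or HFD+F+CCl4 replicate 1 (adjusted p = 0.0634), in a range of 5.08e-05 to 0.318 over 18 alternatives, and the WD+F+CCl4 call without control replicate 1 (adjusted p = 0.245), in a range of 9.18e-07 to 0.245 over 19 alternatives. Removing the cells with the highest doublet scores also ended both calls (adjusted p = 0.234 and adjusted p = 0.235). Monocyte/macrophage markers in B-like cells summed to 1125 to 1689 CPM in controls, 4226 to 7648 CPM in HFD+F+CCl4 and 5232 to 6285 CPM in WD+F+CCl4, with at least 8 of 10 detected in each control mouse and all 10 in each model mouse, and their part was not tested.

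In neutrophil-like cells Pdgfb was at 4.84 and 0 CPM in the control mice, 68.2, 43.5 and 62.5 CPM in the HFD+F+CCl4 mice, and 30.8, 63.2 and 39.0 CPM in the WD+F+CCl4 mice, with 2 UMIs over both controls. It rose in HFD+F+CCl4 (adjusted p = 0.045) and did not pass in WD+F+CCl4 (adjusted p = 0.0526). From pooled UMIs the ratio to control was 12.9 (95% exact interval 3.55 to 107) in HFD+F+CCl4 and 8.51 (95% exact interval 2.34 to 70.5) in WD+F+CCl4, intervals that cover counting error only. The HFD+F+CCl4 call was lost without control replicate 1 (adjusted p = 0.438), control replicate 2 (adjusted p = 0.126), HFD+F+CCl4 replicate 1 (adjusted p = 0.0639) or HFD+F+CCl4 replicate 3 (adjusted p = 0.065), in a range of 4.77e-06 to 0.438 over 18 alternatives. The WD+F+CCl4 difference passed without HFD+F+CCl4 replicate 2 (adjusted p = 0.0477), HFD+F+CCl4 replicate 3 (adjusted p = 0.0493), WD+F+CCl4 replicate 1 (adjusted p = 0.0299) or WD+F+CCl4 replicate 3 (adjusted p = 0.0469), in a range of 5.38e-05 to 0.469 over 18 alternatives. Monocyte/macrophage markers in this class summed to 2589 to 5337 CPM in controls, 9386 to 11211 CPM in HFD+F+CCl4 and 8955 to 12251 CPM in WD+F+CCl4, with at least 7 of 10 detected in each control mouse and all 10 in each model mouse, and their part was not tested. Removing the cells with the highest doublet scores also ended the HFD+F+CCl4 call (adjusted p = 0.347, log2 fold change 2.74 against 3.70).

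Pdgfa, whose A-chain dimer binds PDGF receptor alpha, had its highest levels in cholangiocyte-like and stellate-like cells. Cholangiocyte-like cells were at 130.2 and 90.3 CPM in the control mice, 107, 85.4 and 64.7 CPM in the HFD+F+CCl4 mice, and 88.7 and 84.4 CPM in WD+F+CCl4 replicates 2 and 3, with log2 fold changes of -0.39 in HFD+F+CCl4 and -0.34 in WD+F+CCl4 that did not pass (adjusted p = 0.812 and adjusted p = 0.796). Stellate-like cells were at 112 and 51.9 CPM in HFD+F+CCl4 replicates 1 and 2, the only mice with 20 such cells, and cholangiocyte-like cells lay above them in 1 of these 2 mice. Plasmacytoid dendritic-like cells were lower, at 28.6 and 11.8 CPM in the control mice, 0, 25.8 and 23.1 CPM in the HFD+F+CCl4 mice, and 21.6, 21.1 and 18.7 CPM in the WD+F+CCl4 mice, where the 0 stands for 21 cells.

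In T/NK-like cells Pdgfa was low, at 0.693 and 1.46 CPM in the control mice, 6.03, 4.79 and 3.77 CPM in the HFD+F+CCl4 mice, and 2.63, 3.11 and 2.32 CPM in the WD+F+CCl4 mice, with every model mouse above both controls. It rose in HFD+F+CCl4 (log2 fold change 2.44 ± 0.56 (SE), adjusted p = 0.0343) and did not pass in WD+F+CCl4 (1.75 ± 0.56 (SE), adjusted p = 0.0744). The call was lost without control replicate 1 (adjusted p = 0.236), control replicate 2 (adjusted p = 0.0652), HFD+F+CCl4 replicate 2 (adjusted p = 0.0967), HFD+F+CCl4 replicate 3 (adjusted p = 0.0723), WD+F+CCl4 replicate 1 (adjusted p = 0.0544) or WD+F+CCl4 replicate 2 (adjusted p = 0.0536) and under 5 of the 11 other settings, in a range of 0.0195 to 0.236 over 19 alternatives. Within the NK gene-led cluster 21, Pdgfa had 0 UMIs in both controls and was at 15.0, 6.83 and 25.2 CPM in the HFD+F+CCl4 mice, and 8.73, 9.53 and 3.28 CPM in the WD+F+CCl4 mice. In monocyte/macrophage-like cells Pdgfa was at 3.01 and 0 CPM in the control mice, 14.9, 12.3 and 8.93 CPM in the HFD+F+CCl4 mice, and 3.48, 9.24 and 12.7 CPM in the WD+F+CCl4 mice, with log2 fold changes of 2.17 ± 0.81 (SE), adjusted p = 0.149, in HFD+F+CCl4 and 1.73 ± 0.82 (SE), adjusted p = 0.234, in WD+F+CCl4. Its highest level among these cells was in lipid-associated macrophage-like cells, at 27.6, 28.3 and 39.8 CPM in the HFD+F+CCl4 mice and 9.27, 25.3 and 25.6 CPM in the WD+F+CCl4 mice.

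Pdgfc, a ligand secreted in latent form and activated by proteases such as tissue plasminogen activator, was concentrated in cholangiocyte-like and Kupffer-like cells. Cholangiocyte-like cells were at 127 and 113 CPM in the control mice, 106, 98.7 and 68.5 CPM in the HFD+F+CCl4 mice, and 69.2 and 103 CPM in WD+F+CCl4 replicates 2 and 3, and the log2 fold changes of -0.34 and -0.37 against control did not pass (adjusted p = 0.853 and adjusted p = 0.786). Kupffer-like cells were at 93.6, 85.2 and 31.1 CPM in the HFD+F+CCl4 mice and 29.1 and 66.1 CPM in WD+F+CCl4 replicates 2 and 3, on as few as 28 cells in WD+F+CCl4 replicate 2. In the whole monocyte/macrophage-like class Pdgfc was at 0.502 and 0 CPM in the control mice, 17.7, 7.64 and 1.32 CPM in the HFD+F+CCl4 mice, and 1.11, 1.01 and 14.3 CPM in the WD+F+CCl4 mice. The highest levels were in HFD+F+CCl4 replicates 1 and 2 and WD+F+CCl4 replicate 3, the mice with the largest shares of Kupffer-like cells (6.19%, 4.01% and 11.4% of the class). Control replicate 1 had a larger share (1.93%, 9 cells) than the other model mice and a lower Pdgfc level. With 1 UMI in the controls, the pooled ratio was 19.9 (95% exact interval 3.56 to 787) in HFD+F+CCl4 and 13.7 (95% exact interval 2.45 to 542) in WD+F+CCl4, and edgeR's test did not pass (adjusted p = 0.398 and adjusted p = 0.473).

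The PDGF receptors marked stellate-like cells. This class held 251 cells, 161 of them from HFD+F+CCl4 replicate 1 and 39 from replicate 2, so that no comparison of groups was possible, and its 11 markers (such as Dcn, Col3a1 and Lrat) summed to 25211 to 42403 CPM in HFD+F+CCl4 with none at 0. Pdgfra, the receptor for the A, B and C chains, was at 399 and 545 CPM in HFD+F+CCl4 replicates 1 and 2, from 472 and 126 UMIs. In each of the other 15 classes the mean Pdgfra level was under 1 CPM. Pdgfrb, the main receptor for the B chain, was at 474 and 195 CPM in HFD+F+CCl4 replicates 1 and 2, from 560 and 45 UMIs. The order of these mice was opposite for the receptors, with Pdgfra higher in replicate 2 and Pdgfrb higher in replicate 1.

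Outside stellate-like cells, Pdgfrb was detected at low levels in patrolling monocyte-like cells, which held 14.4% of its UMIs, at 0 CPM in control replicate 1, 6.68, 3.76 and 4.75 CPM in the HFD+F+CCl4 mice, and 2.77, 4.63 and 5.80 CPM in the WD+F+CCl4 mice. Classical monocyte-like cells were at 1.84 and 0 CPM in the control mice, 2.68, 1.25 and 3.00 CPM in the HFD+F+CCl4 mice, and 1.14, 2.12 and 1.24 CPM in the WD+F+CCl4 mice. Patrolling monocyte-like cells lay above them in each of the 6 model mice. The 0 of control replicate 1 in patrolling monocyte-like cells stands for 33 cells. It does not show that the level was lower than in the models. The monocyte/macrophage-like class as a whole did not pass for Pdgfrb in HFD+F+CCl4 (adjusted p = 0.552) or WD+F+CCl4 (adjusted p = 0.963), and with 3 UMIs in the controls the pooled ratios were 1.88 (95% exact interval 0.635 to 9.19) and 1.07 (95% exact interval 0.359 to 5.25). Pdgfra was too low to be tested in any class outside stellate-like cells, which had too few mice for a comparison.

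Osm was highest in neutrophil-like cells, at 24.2 and 29.4 CPM in the control mice, 77.4, 7.86 and 19.2 CPM in the HFD+F+CCl4 mice, and 10.9, 6.93 and 52.3 CPM in the WD+F+CCl4 mice. The model mice spread on both sides of the controls, with HFD+F+CCl4 replicate 1 highest and WD+F+CCl4 replicate 2 lowest, and neither comparison passed (adjusted p = 0.929 and adjusted p = 0.98). In the same HFD+F+CCl4 neutrophil-like cells, the immediate early and heat shock list ranged from 2264 to 10662 CPM, against 2059.7 to 3150.2 CPM in controls, and its part in the Osm levels was not tested. T/NK-like cells came next, at 6.70 and 4.38 CPM in the control mice, 12.7, 7.66 and 6.16 CPM in the HFD+F+CCl4 mice, and 9.31, 10.8 and 5.93 CPM in the WD+F+CCl4 mice, below neutrophil-like cells in 7 of 8 mice. In monocyte/macrophage-like cells Osm was at 1.00 and 0 CPM in the control mice, 8.39, 2.58 and 2.91 CPM in the HFD+F+CCl4 mice, and 2.98, 3.23 and 2.46 CPM in the WD+F+CCl4 mice, and the pooled ratio to the 2 control UMIs was 5.22 (95% exact interval 1.44 to 43.2) in HFD+F+CCl4 and 3.19 (95% exact interval 0.874 to 26.5) in WD+F+CCl4, without passing edgeR's test (adjusted p = 0.179 and adjusted p = 0.305).

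Osmr, a receptor subunit for oncostatin M that is also part of the IL-31 receptor, was detected mainly in non-immune cells. Stellate-like cells were at 134 and 147 CPM in HFD+F+CCl4 replicates 1 and 2, above endothelial-like cells in both of these mice. In endothelial-like cells Osmr was at 69.5 and 25.7 CPM in the control mice, 105, 96.9 and 93.5 CPM in the HFD+F+CCl4 mice, and 37.2 and 124 CPM in WD+F+CCl4 replicates 2 and 3, and the log2 fold changes of 0.80 ± 0.46 (SE), adjusted p = 0.519, in HFD+F+CCl4 and 0.75 ± 0.49 (SE), adjusted p = 0.629, in WD+F+CCl4 did not pass. WD+F+CCl4 replicate 2, with 25 endothelial-like cells and 6 Osmr UMIs, lay within the control range. Cholangiocyte-like cells were at 13 and 22.6 CPM in the control mice, 24.5, 10.8 and 15.2 CPM in the HFD+F+CCl4 mice, and 18.5 and 19.3 CPM in WD+F+CCl4 replicates 2 and 3, below endothelial-like cells in each of the 7 mice with both. In monocyte/macrophage-like cells, Osmr had 0 UMIs in the controls and no mouse exceeded 1.67 CPM, so no fold change is given.

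Igf1 had its highest mean level in Kupffer-like cells, at 641, 752 and 483 CPM in the HFD+F+CCl4 mice and 494 and 747 CPM in WD+F+CCl4 replicates 2 and 3, and the next highest among macrophages was in lipid-associated macrophage-like cells, at 501, 394 and 227 CPM in the HFD+F+CCl4 mice and 232, 253 and 371 CPM in the WD+F+CCl4 mice. No control mouse had 20 cells of either kind. Kupffer-like cells lay above lipid-associated macrophage-like cells in each of the 5 mice with both. Other macrophage-like cells were at 74.8 and 0 CPM in the control mice, 257, 142 and 70.7 CPM in the HFD+F+CCl4 mice, and 50.9, 76.2 and 127 CPM in the WD+F+CCl4 mice, and patrolling monocyte-like cells at 0 CPM in control replicate 1, 35.9, 23.2 and 3.67 CPM in the HFD+F+CCl4 mice, and 4.62, 4.63 and 17.1 CPM in the WD+F+CCl4 mice. These values of 0 stand for 24 other macrophage-like cells of control replicate 2 and 33 patrolling monocyte-like cells of control replicate 1. They do not show that the control level was lower than in the models. In the whole monocyte/macrophage-like class Igf1 was at 23.6 and 20.5 CPM in the control mice, 241, 189.5 and 44.7 CPM in the HFD+F+CCl4 mice, and 62.0, 54.5 and 227 CPM in the WD+F+CCl4 mice, so that all model mice lay above both controls.

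As for Pdgfc, the 3 highest Igf1 levels were those of HFD+F+CCl4 replicates 1 and 2 and WD+F+CCl4 replicate 3, in which 4.01% to 11.4% of the class were Kupffer-like cells, against 0.16% to 0.58% in the other model mice. Control replicate 1 had a larger share than those other model mice (1.93%, 9 cells) and a lower Igf1 level. The log2 fold changes of 2.75 ± 0.95 (SE), adjusted p = 0.125, in HFD+F+CCl4 and 2.36 ± 0.94 (SE), adjusted p = 0.162, in WD+F+CCl4 did not pass. Without HFD+F+CCl4 replicate 3 the HFD+F+CCl4 difference passed (adjusted p = 0.0424), in a range of 0.00925 to 0.722 over 19 alternatives. A sum over the class mixes its kinds of cells, so more Kupffer-like cells and more Igf1 per cell cannot be told apart in the sum alone. The same 3 mice also had the highest Igf1 levels within Kupffer-like, lipid-associated macrophage-like, other macrophage-like and patrolling monocyte-like cells. The part of either in the class level was not tested.

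**Figure D4:**
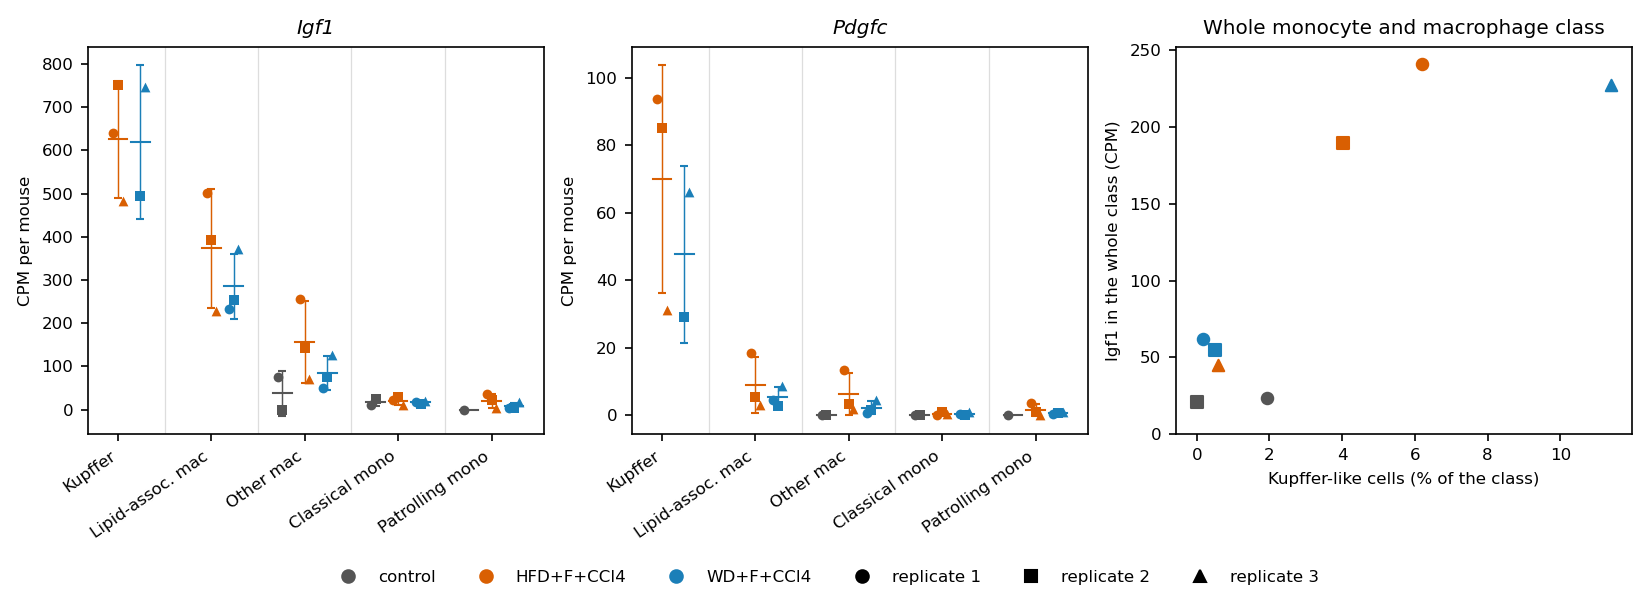
Igf1 (left) and Pdgfc (middle) level per mouse (vertical axes, CPM) in the kinds of monocyte-like and macrophage-like cells, with mean ± SD, and Igf1 in the whole class against the share of Kupffer-like cells in it (right, 1 point per mouse). Kupffer-like cells lie highest for both genes, and the 3 mice with over 4% Kupffer-like cells hold the 3 highest Igf1 levels.

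In cholangiocyte-like cells, Igf1 was at 114 and 90.3 CPM in the control mice, 442, 327 and 279.8 CPM in the HFD+F+CCl4 mice, and 324 and 377 CPM in WD+F+CCl4 replicates 2 and 3, with no overlap between controls and models. It rose in both models, by a log2 fold change of 1.77 ± 0.34 (SE), adjusted p = 0.0408, in HFD+F+CCl4 and 1.83 ± 0.36 (SE), adjusted p = 0.0373, in WD+F+CCl4. The calls rest on 35 and 4 UMIs in the control mice. In HFD+F+CCl4 the call was lost without control replicate 1 (adjusted p = 0.526), control replicate 2 (adjusted p = 0.26), HFD+F+CCl4 replicate 1 (adjusted p = 0.0994) or HFD+F+CCl4 replicate 2 (adjusted p = 0.126), in a range of 0.000293 to 0.666 over 17 alternatives, and in WD+F+CCl4 without control replicate 1 (adjusted p = 0.429), control replicate 2 (adjusted p = 0.218) or HFD+F+CCl4 replicate 2 (adjusted p = 0.0799), in a range of 0.000243 to 0.507 over 17 alternatives. Naming each cell by its own marker scores also ended both (adjusted p = 0.666 and adjusted p = 0.507). In this class, the 11 stellate and fibroblast markers summed to 271 to 273 CPM in controls, 720.4 to 898 CPM in HFD+F+CCl4 and 963 to 1216 CPM in WD+F+CCl4, and the monocyte/macrophage markers to 1129.5 to 1762 CPM in controls, 1378 to 2981 CPM in HFD+F+CCl4 and 1875 to 5572 CPM in WD+F+CCl4. Their part in the Igf1 difference was not tested.

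In hepatocyte-like cells, the best-known source of circulating IGF-1, Igf1 was at 717 CPM in control replicate 1, 317, 363 and 344 CPM in the HFD+F+CCl4 mice, and 217, 175 and 304 CPM in the WD+F+CCl4 mice. The control value of 717 CPM comes from 38 cells of 1 mouse and 68 UMIs, and it lay above every model mouse. Clusters 16 and 17, led by hepatocyte genes, stayed unnamed and lie outside this class. Control replicate 2 gave 2021 of the 2052 cells of cluster 16, and control replicate 1 gave 1934 of the 1960 cells of cluster 17. Pooled over their cells, Igf1 was at 80.2 and 62.1 CPM there, so the control level depends on which clusters are named. No test against control was possible, and between the models the log2 fold change was -0.56 ± 0.29 (SE), adjusted p = 0.827. In the remaining classes Igf1 gave no call against control. In B-like cells the log2 fold change was 1.49 ± 0.62 (SE), adjusted p = 0.203, in HFD+F+CCl4 and 0.08 ± 0.58 (SE), adjusted p = 0.968, in WD+F+CCl4.

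Areg was not detected in the controls, with a UMI in 0 of 14956 cells of the 2 control mice, which allows a share of cells with a UMI of up to 0.0201% (counting error only). In T/NK-like cells it was at 0 and 0 CPM in the control mice, 3.02, 3.83 and 6.51 CPM in the HFD+F+CCl4 mice, and 0, 0.239 and 1.03 CPM in the WD+F+CCl4 mice. Areg rose in HFD+F+CCl4 (adjusted p = 0.0263). Its pooled level there was 24.2 times the limit that 0 allows in the controls, taken as 3 UMIs over the control group. In WD+F+CCl4, with 5 UMIs, the pooled level was 1.95 times that limit, and the difference did not pass (adjusted p = 0.163). These ratios leave out the counting error of the model UMIs and the spread between mice, so they are not lower bounds. Most of the T/NK-like UMIs lay in cluster 24, whose leading genes were Foxp3, Ikzf2 and Ctla4, known from regulatory T cells, and where Areg was at 0 CPM in control replicate 1, 31.0, 27.5 and 27.6 CPM in the HFD+F+CCl4 mice, and 0, 5.16 and 11.1 CPM in the WD+F+CCl4 mice. The HFD+F+CCl4 mice lay above the WD+F+CCl4 mice in this cluster, on 4, 16 and 29 UMIs against 0, 1 and 2. Cluster 24 made up 2.07% of the control, 15.02% of the HFD+F+CCl4 and 5.26% of the WD+F+CCl4 T/NK-like cells, so that in the class as a whole more cells of the cluster and more Areg per cell cannot be told apart. The call was lost without control replicate 1 (adjusted p = 0.202), control replicate 2 (adjusted p = 0.0609), HFD+F+CCl4 replicate 2 (adjusted p = 0.0693) or HFD+F+CCl4 replicate 3 (adjusted p = 0.0778) and under 2 of the 11 other settings, in a range of 2.55e-06 to 0.202 over 19 alternatives.

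Patrolling monocyte-like cells held the other main source of Areg, at 0 CPM in control replicate 1, 13.6, 1.33 and 3.56 CPM in the HFD+F+CCl4 mice, and 0.615, 5.15 and 4.51 CPM in the WD+F+CCl4 mice. Of these UMIs, 102 were from HFD+F+CCl4 replicate 1, where cluster 8, led by Hspa1b, Hspa1a and Fosb, held 2781 of 2996 patrolling monocyte-like cells. The 0 of control replicate 1 stands for 33 such cells and does not show that the level was lower than in the models. Over the monocyte/macrophage-like class, Areg was at 0 and 0 CPM in the control mice, 4.18, 0.215 and 1.35 CPM in the HFD+F+CCl4 mice, and 0.117, 0.827 and 0.882 CPM in the WD+F+CCl4 mice and did not pass (adjusted p = 0.403 and adjusted p = 0.591). The immediate early and heat shock list in that class ran from 837 to 954 CPM in controls, 771 to 5040.0 CPM in HFD+F+CCl4 and 821 to 1749.7 CPM in WD+F+CCl4, and its part in the Areg levels was not tested. The next highest mean Areg level was in hepatocyte-like cells, at 1.56 CPM from 4 UMIs.

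Vegfa was highest in cholangiocyte-like cells, at 124 and 158 CPM in the control mice, 205, 101 and 81.8 CPM in the HFD+F+CCl4 mice, and 47.8 and 83.3 CPM in WD+F+CCl4 replicates 2 and 3. HFD+F+CCl4 replicate 1 was highest and both WD+F+CCl4 mice lay below both controls, but no comparison with control passed (adjusted p = 1 and adjusted p = 0.555). Neutrophil-like cells were at 14.5 and 118 CPM in the control mice, 119.5, 27.8 and 30.1 CPM in the HFD+F+CCl4 mice, and 11.1, 13 and 44.5 CPM in the WD+F+CCl4 mice, with 4 UMIs behind the value of control replicate 2, and endothelial-like cells, the responders to VEGF-A, at 27.6 and 34.2 CPM in the control mice, 24.9, 17.2 and 8.5 CPM in the HFD+F+CCl4 mice, and 18.6 and 25 CPM in WD+F+CCl4 replicates 2 and 3. Hepatocyte-like cells were at 148 CPM in control replicate 1, 34.5, 42.5 and 9.31 CPM in the HFD+F+CCl4 mice, and 5.92, 9.81 and 15.2 CPM in the WD+F+CCl4 mice, where the control value rests on 14 UMIs. In the unnamed clusters 16 and 17, led by hepatocyte genes and almost all from controls, Vegfa was at 68.95 and 6.42 CPM over all cells.

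In T/NK-like cells Vegfa was at 3.70 and 23.4 CPM in the control mice, 2.41, 2.15 and 1.88 CPM in the HFD+F+CCl4 mice, and 0.239, 0.957 and 0.516 CPM in the WD+F+CCl4 mice, and all model mice lay below both controls. It fell in WD+F+CCl4 (log2 fold change -4.15 ± 0.83 (SE), adjusted p = 0.0165), and the difference in HFD+F+CCl4 did not pass (-2.43 ± 0.74 (SE), adjusted p = 0.0806). The class held 111 Vegfa UMIs over the 8 mice. The WD+F+CCl4 levels rest on few of them, out of 3876672 to 4187654 UMIs of all genes per mouse. The WD+F+CCl4 call was lost without control replicate 2 (adjusted p = 0.0726) or WD+F+CCl4 replicate 1 (adjusted p = 0.052), with a log2 fold change of -2.58 without control replicate 2, in a range of 1.73e-07 to 0.0726 over 19 alternatives. The HFD+F+CCl4 difference passed without control replicate 1 (adjusted p = 0.0428), in a range of 0.00225 to 0.521 over 19 alternatives. Control replicate 2 was at 23.4 CPM in T/NK-like cells, at 24.6 CPM in monocyte/macrophage-like cells and at 29.2 CPM in B-like cells, where control replicate 1 was at 3.70, 2.01 and 2.72 CPM. The 7 hepatocyte markers in T/NK-like cells summed to 1361 to 2173 CPM in controls, 100 to 928 CPM in HFD+F+CCl4 and 49.5 to 249 CPM in WD+F+CCl4, and their part was not tested.

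**Figure D5:**
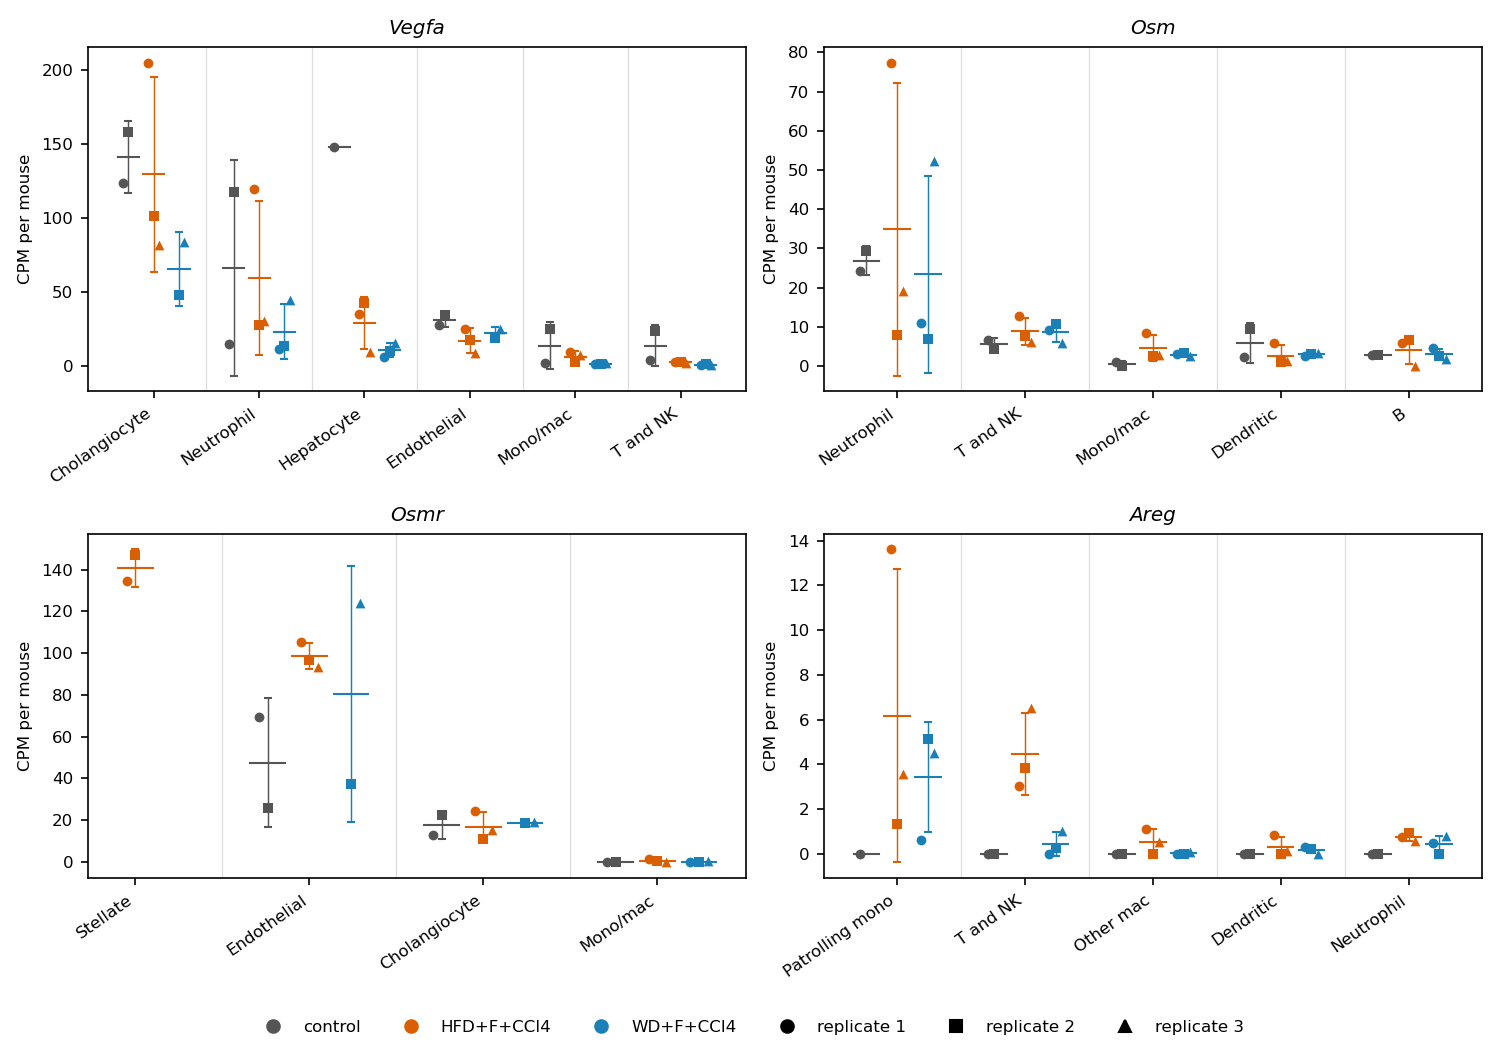
Levels per mouse (vertical axes, CPM) of Vegfa, Osm, Osmr and Areg in selected classes, with points as mice, shaped by replicate and colored by group, and lines and bars as mean ± SD. Osm is highest in neutrophil-like cells, Osmr in stellate-like and endothelial-like cells, and Areg is at 0 in every control mouse.

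Between the 2 models, edgeR called 0 of 40 tested combinations of gene and class, 9 of which had an unadjusted p under 0.05, and 0 were called by DESeq2. Of all genes, 0% were called in monocyte/macrophage, endothelial, T/NK, dendritic, neutrophil, hepatocyte and cholangiocyte-like cells, and 0.225% in B-like cells. Vegfa had lower levels in WD+F+CCl4 than in HFD+F+CCl4 in 6 of 7 classes, with an unadjusted p under 0.05 in 5 of them. Its log2 difference, WD+F+CCl4 minus HFD+F+CCl4, was -2.40 ± 0.71 (SE), adjusted p = 0.72, in monocyte/macrophage-like cells, -2.74 ± 1.02 (SE), adjusted p = 0.704, in dendritic-like cells and -1.78 ± 0.52 (SE), adjusted p = 0.595, in hepatocyte-like cells, and 0.29 ± 0.43 (SE), adjusted p = 1, in endothelial-like cells. Without WD+F+CCl4 replicate 3 the hepatocyte-like difference passed (adjusted p = 0.0384), in a range of 0.0384 to 1 over 15 alternatives.

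Areg in T/NK-like cells (-3.31 ± 0.85 (SE), adjusted p = 0.989) and Igf1 in dendritic-like (-1.44 ± 0.62 (SE), adjusted p = 0.815) and B-like cells (-1.41 ± 0.56 (SE), adjusted p = 0.639) were also lower in WD+F+CCl4 at an unadjusted p under 0.05 only. The Igf1 difference in B-like cells passed without WD+F+CCl4 replicate 3 (adjusted p = 0.0332), in a range of 0.0223 to 1 over 19 alternatives. Pdgfb in cholangiocyte-like cells was the only value of this kind that was higher in WD+F+CCl4 (0.85 ± 0.30 (SE), adjusted p = 1). For Pdgfb in the other classes the difference between models lay between -0.59 and 0.21 on the log2 scale, with SEs from 0.22 to 0.53.

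The other genes of these pathways were read from a list of 42 ligands, receptors, binding proteins and activating proteases. In monocyte/macrophage-like cells, 37 were tested, and 1 rose and 1 fell in HFD+F+CCl4, while 3 rose and 1 fell in WD+F+CCl4 (median log2 fold change of the list -0.04 and -0.19, beside 0.13 and 0.13 over all genes tested). Of all genes tested in this class, 5.36% were called in HFD+F+CCl4 and 6.86% in WD+F+CCl4. Flt1, a VEGF receptor that binds VEGF-A and PlGF, was at 99.3 and 85.9 CPM in the control mice, 10.3, 10.3 and 8.83 CPM in the HFD+F+CCl4 mice, and 8.21, 7.37 and 8.28 CPM in the WD+F+CCl4 mice, and it fell in both models (-3.25 ± 0.18 (SE), adjusted p = 0.000283, and -3.50 ± 0.18 (SE), adjusted p = 0.000155). Igf2r, the mannose 6-phosphate receptor that clears IGF-2, was at 7.02 and 8.19 CPM in the control mice, 56.5, 47.3 and 55.6 CPM in the HFD+F+CCl4 mice, and 70.0, 43.2 and 55.8 CPM in the WD+F+CCl4 mice, and it rose in both (2.85 ± 0.34 (SE), adjusted p = 0.00431, and 2.99 ± 0.34 (SE), adjusted p = 0.00516). Plau, which encodes urokinase, was at 2.51 and 4.09 CPM in the control mice, 16.7, 32.3 and 9.57 CPM in the HFD+F+CCl4 mice, and 28.2, 27.2 and 29.4 CPM in the WD+F+CCl4 mice and rose in WD+F+CCl4 (3.40 ± 0.76 (SE), adjusted p = 0.0328). Igfbp6, a binding protein with preference for IGF-2, was at 0.502 and 0 CPM in the control mice, 5.64, 5.24 and 6.63 CPM in the HFD+F+CCl4 mice, and 33.9, 18.3 and 9.41 CPM in the WD+F+CCl4 mice and rose in WD+F+CCl4 (5.54 ± 1.13 (SE), adjusted p = 0.024), against a single control UMI. The clusters of this class differed between groups, with 70.71% of control cells but at most 0.03% of model cells in cluster 27. The part of this in the differences above was not tested.

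In endothelial-like cells, 1 of 28 tested list genes rose in each model and none fell. It was Igfbp5, an IGF-binding protein, at 1.90 and 0 CPM in the control mice, 148, 98.0 and 97.8 CPM in the HFD+F+CCl4 mice, and 1253 and 157 CPM in WD+F+CCl4 replicates 2 and 3, with 2 control UMIs, adjusted p = 0.0485 in HFD+F+CCl4 and adjusted p = 0.0188 in WD+F+CCl4. The VEGF receptor Kdr, a marker of sinusoidal and capillary endothelium, was at 1784 and 1326 CPM in the control mice, 1568, 998 and 421 CPM in the HFD+F+CCl4 mice, and 428 and 1821 CPM in WD+F+CCl4 replicates 2 and 3 there, with groups overlapping and no call, and was named after its values were seen. In cholangiocyte-like cells 0 of 28 passed by edgeR in HFD+F+CCl4 (5 at an unadjusted p under 0.05, and 1 called by DESeq2), and 1 rose in WD+F+CCl4, the binding protein Igfbp7, at 316 and 723 CPM in the control mice, 942, 1112 and 851 CPM in the HFD+F+CCl4 mice, and 1348 and 1592 CPM in WD+F+CCl4 replicates 2 and 3 (1.86 ± 0.36 (SE), adjusted p = 0.0351). Of all genes tested there, edgeR called 0.469% in HFD+F+CCl4 and 0.584% in WD+F+CCl4.

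In dendritic-like cells Igfbp6 rose and Flt1 fell in HFD+F+CCl4 (1 each of 24), and in WD+F+CCl4 Egfr, the receptor for amphiregulin, fell as well (adjusted p = 0.0192). The share called among all genes tested there was 3.63% in HFD+F+CCl4 and 8.88% in WD+F+CCl4. The 7 hepatocyte markers in dendritic-like cells summed to 799 to 1203 CPM in controls, 72.4 to 498 CPM in HFD+F+CCl4 and 46.3 to 127 CPM in WD+F+CCl4, and their part in the Egfr difference was not tested. Igfbp6 had 0 UMIs in both controls and 7.98, 7.92 and 9.79 CPM in the HFD+F+CCl4 and 21.0, 19.4 and 11.7 CPM in the WD+F+CCl4 mice (adjusted p = 0.018 and adjusted p = 0.0037). In neutrophil-like cells Igfbp6 rose in both models (1 of 24 each), at 7.26 and 0 CPM in the control mice, 151, 137 and 59.1 CPM in the HFD+F+CCl4 mice, and 62.5, 122 and 145 CPM in the WD+F+CCl4 mice, and Flt1 fell in WD+F+CCl4 (-2.33 ± 0.56 (SE), adjusted p = 0.0393). The share called among all genes tested there was 2.29% in HFD+F+CCl4 and 4.2% in WD+F+CCl4. In T/NK-like cells, of 27 tested, Igf1r, the receptor for IGF-1, rose and Lifr, a receptor of the same cytokine family as OSMR, fell in HFD+F+CCl4 (1.63 ± 0.32 (SE), adjusted p = 0.0222, and -2.38 ± 0.45 (SE), adjusted p = 0.0197). In WD+F+CCl4 Igf2r, named after its values were seen, rose there and Igfals, Egfr and Lifr fell (adjusted p = 0.0471, adjusted p = 0.0349, adjusted p = 0.0393 and adjusted p = 0.0262). DESeq2 did not call Igfals. Of all genes tested in T/NK-like cells, 6.74% were called in HFD+F+CCl4 and 10.7% in WD+F+CCl4. In B-like cells, of 20 tested, 1 fell in HFD+F+CCl4 (Kdr, adjusted p = 0.0257), and 8 fell and 1 rose in WD+F+CCl4, with Egfr, Igfbp7 and Flt4 the largest decreases (adjusted p = 0.00121, adjusted p = 0.0432 and adjusted p = 0.0336) and Socs3, named after its values were seen, the increase (adjusted p = 0.00963). DESeq2 called 0 list genes in these cells in HFD+F+CCl4 and 2 in WD+F+CCl4. It called Egfr in WD+F+CCl4, but not Igfbp7 or Flt4. Of all genes tested in B-like cells, edgeR called 6.23% in HFD+F+CCl4 and 12.4% in WD+F+CCl4.

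Egfr, Kdr, Igfals and Flt1 are genes with high levels in hepatocytes or endothelium, and the lymphoid calls on them rest on low levels, such as Egfr in B-like cells at 12.5 and 29.2 CPM in the control mice, 5.93, 1.09 and 0 CPM in the HFD+F+CCl4 mice, and 0.802, 0 and 0.873 CPM in the WD+F+CCl4 mice. In these B-like cells the 7 hepatocyte markers summed to 2306 to 2706 CPM in controls, 64.2 to 1073 CPM in HFD+F+CCl4 and 63.1 to 221 CPM in WD+F+CCl4 and the 9 endothelial markers to 417 to 701 CPM in controls, 164 to 353 CPM in HFD+F+CCl4 and 125 to 249.7 CPM in WD+F+CCl4, and their part was not tested. Between the models, edgeR called 0 of 210 tested combinations of list gene and class over 8 classes, 27 had an unadjusted p under 0.05, and DESeq2 called 3.

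The genes whose pattern over classes was most like that of each gene were ranked by Pearson's r of mean log2(CPM + 1) over the 16 classes, among 11530 genes that reached 20 CPM in at least 1 class. These are descriptions over classes that share libraries, and a class with few cells weighs as much as a large one. Pdgfra was closest to Prrx1 (r = 0.998), Runx1t1 (r = 0.998) and Lama2 (r = 0.998), and Pdgfrb to Mrc2 (r = 0.978), Ereg (r = 0.976) and Adra2b (r = 0.975). Osmr was closest to 3110039I08Rik (r = 0.989), Igfbp7 (r = 0.986) and Map1b (r = 0.981), and Igf1 to Cela1 (r = 0.963), Retsat (r = 0.955) and Ttyh2 (r = 0.946). For Pdgfb the nearest were Ipo7 (r = 0.877), Ensa (r = 0.86) and Tmem51 (r = 0.848), for Pdgfa Ift74 (r = 0.933), Gas8 (r = 0.93) and Tmem250-ps (r = 0.904), and for Pdgfc Adam33 (r = 0.929), Tmem229a (r = 0.903) and Ank2 (r = 0.903). Vegfa was nearest to Inhba (r = 0.955), Rab6a (r = 0.896) and Nsmf (r = 0.895), Osm to Tnfsf14 (r = 0.834), E230032D23Rik (r = 0.822) and Gm39556 (r = 0.815), and Areg to 1700011B04Rik (r = 0.835), Penk (r = 0.789) and Dnah12 (r = 0.78).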

How the data were processed

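The values used are the UMI counts per gene and barcode that the authors deposited as 1 sparse matrix of all 8 libraries, split here into mice by the barcode suffix, and made from 10x Genomics 3′ V3 libraries with bcl2fastq 2.20 and Cell Ranger on the GRCm38 build, and the header of the deposited matrix names software version 4.0.0. Livers were digested at 37 °C, red cells lysed and dead cells removed before capture. The 10 genes, the pathway list and the marker lists were chosen with earlier results of these data known.

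As in the study's own filter, a barcode was retained at over 500 genes and a mitochondrial share of its UMIs below 25%. Cells were scaled to 10000 UMIs, log-transformed and clustered with scanpy 1.11.5 and leidenalg 0.10.2 (2000 variable genes without the 10 genes and the list, 52 genes in all, 30 components, 20 neighbors, resolution 1.0, seed 1). No batch correction was applied. Where a cluster comes mainly from control or from model mice, a kind of cell and a difference between libraries cannot be told apart. Each cluster was named from marker lists by its mean marker score, at least 0.5 for a class and 1.3 for a kind of monocyte or macrophage. A cluster stayed unnamed when led by cycling genes, or when its leading genes were those of another class or went against its name. It also stayed unnamed when its hepatocyte markers summed to under 0.5 of those of the leading hepatocyte cluster. These limits were set after seeing the clusters, and 6 clusters (7395 cells) stayed unnamed and out of the tests. Doublets were not removed in the values reported, and an alternative removed the 7446 cells with the highest doublet scores (0.8% per 1000 cells).

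UMIs were summed per mouse and class for mice with at least 20 cells. Genes passing edgeR's filterByExpr with a minimum count of 10 were tested with edgeR 4.0.16 (TMM scaling, quasi-likelihood test, all 3 groups in 1 fit, R 4.3.3), two-sided, for each pair of groups with at least 2 mice each. WD+F+CCl4 replicate 1 is therefore missing from the fits of endothelial-like and cholangiocyte-like cells. Plasmacytoid dendritic-like, plasma-like and erythroid-like cells were not among the classes tested. Adjusted p is Benjamini-Hochberg over all genes of a class, and the scripts were tested on simulated counts with known changes. Alternatives were DESeq2 1.42.0, DESeq2 size factors, library size scaling, no low-count filter, only the groups compared, a replicate block, each mouse left out, over 1000 genes or under 10% mitochondrial UMIs per cell, resolution 0.5, doublets removed, cells named by their own scores, monocytes only and, chosen after seeing the data, no clusters led by stress genes.

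The genes named from the pathway list were, for each class and comparison with control, the 3 called ones with the largest log2 fold change. Mice of 1 group are the replicates, and the numbers they share across groups were not used as pairs. Intervals of ratios and limits at 0 UMIs are exact or 3-UMI limits at the 95% level and cover counting error only.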

Additional observations from a re-analysis of the deposited data

Results flagged for a closer look

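Pdgfb was also detected in a cluster of cycling cells (cluster 23) that was left unnamed and out of every comparison. Its median level over the 6 model mice was 32.1 CPM, with mice from 25.3 to 39.1 CPM on 140 UMIs, against 8.54 and 12.1 CPM in the 2 control mice on 26 UMIs. The value was picked out because these cells belong to no comparison and their level lay above that of both control mice, and the difference was not tested.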

How the results depend on the processing

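Counts of the 10 genes called moved with the processing. Keeping cells over 1000 genes gave 2 called in B-like HFD+F+CCl4, 0 in dendritic-like HFD+F+CCl4 and WD+F+CCl4 and 1 in T/NK-like HFD+F+CCl4. With no low-count filter, 2 were called in B-like HFD+F+CCl4 and WD+F+CCl4, 1 in B-like WD+F+CCl4 against HFD+F+CCl4, 2 in cholangiocyte-like HFD+F+CCl4, 1 in dendritic-like WD+F+CCl4 against HFD+F+CCl4, 1 in endothelial-like WD+F+CCl4, 1 in hepatocyte-like WD+F+CCl4 against HFD+F+CCl4, 3 in monocyte/macrophage-like HFD+F+CCl4 and 1 in WD+F+CCl4, 2 in neutrophil-like WD+F+CCl4 and 1 in WD+F+CCl4 against HFD+F+CCl4, and 5 in T/NK-like HFD+F+CCl4 and 1 in WD+F+CCl4 against HFD+F+CCl4. With only the groups compared, 0 were called in B-like HFD+F+CCl4, where Pdgfb did not pass the low-count filter and was not tested, and in cholangiocyte-like WD+F+CCl4, and 1 in monocyte/macrophage-like HFD+F+CCl4 and neutrophil-like WD+F+CCl4. Removing doublets gave 0 in B-like HFD+F+CCl4 and WD+F+CCl4, dendritic-like WD+F+CCl4 and neutrophil-like HFD+F+CCl4, and 1 in T/NK-like HFD+F+CCl4 and WD+F+CCl4. Naming cells by their own scores gave 0 in B-like WD+F+CCl4, cholangiocyte-like HFD+F+CCl4 and WD+F+CCl4, dendritic-like HFD+F+CCl4 and WD+F+CCl4, and endothelial-like HFD+F+CCl4. Library size scaling gave 1 in cholangiocyte-like and neutrophil-like WD+F+CCl4 and 0 in dendritic-like HFD+F+CCl4 and WD+F+CCl4. DESeq2 called 1 in endothelial-like, monocyte/macrophage-like and neutrophil-like WD+F+CCl4 and 2 in monocyte/macrophage-like HFD+F+CCl4, and DESeq2 size factors in edgeR gave 0 in dendritic-like WD+F+CCl4. Apart from the fits that test fewer mice, the cause of these moves was not tested. Of 2083 values of single genes under alternatives, 84 lost and 36 gained a call, and no called value changed sign.

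Same-numbered model mice did not deviate together (correlations of -0.519 to -0.122 in monocyte/macrophage-like and -0.29 to -0.097 in T/NK-like cells), and none of the HFD+F+CCl4 mice correlated best with the WD+F+CCl4 mouse of its own number. With the replicate block, 0 were called in T/NK-like, endothelial-like and dendritic-like HFD+F+CCl4 and in dendritic-like WD+F+CCl4, and the other 18 counts stayed within 1.5 times. Resolution 0.5 and under 10% mitochondrial UMIs changed none of the 22 counts. Neither monocytes only nor leaving out the clusters led by stress genes changed any of the 3 counts of monocyte/macrophage-like cells, which were 0 to begin with. Own scores could be fitted for 20 counts and over 1000 genes for 16, because mice fell under 20 cells.

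Leaving out 1 mouse at a time gave 0 to 3 called in T/NK-like HFD+F+CCl4, 1 to 2 in WD+F+CCl4 and 0 to 0 between models. In B-like cells it gave 0 to 1 in HFD+F+CCl4, 1 to 1 in WD+F+CCl4, where without control replicate 1 the called gene was not Pdgfb (adjusted p = 0.245), and 0 to 1 between models. In cholangiocyte-like cells it gave 0 to 1, 0 to 2 and 0 to 0. In dendritic-like, endothelial-like, monocyte/macrophage-like and neutrophil-like cells it gave 0 to 1 in each model and 0 to 0 between models, and in hepatocyte-like cells 0 to 1 between models. A group left with 1 mouse was assumed to vary like the others. The controls are 2 mice, 1 of them at 992.5 UMIs per cell, and a gene at 0 UMIs in 676 control monocyte/macrophage-like cells is not shown to be absent.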

Other observations

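Among the cells outside the comparisons, Vegfa was detected in cluster 16, which was led by hepatocyte genes such as Mug1 and Cyp2e1 but was left unnamed. Of its 2052 cells, 2021 came from control replicate 2, where Vegfa was at 70.3 CPM on 141 UMIs, and 30 came from control replicate 1, where Vegfa had 0 UMIs. The unnamed clusters together held 7.57% of all Vegfa UMIs, 7.04% of Igf1 UMIs and 4.72% of Pdgfb UMIs.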
